A study of Mus musculus with 6 samples.

Results

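The cytosolic ribosomal protein genes are the 84 rows, of 36557 in the deposited gene table, whose symbol has the form of a numbered Rpl or Rps gene, with its paralogues, or is Rplp0, Rplp1, Rplp2 or Rpsa. They comprise 52 genes of the large (60S) ribosomal subunit and 32 of the small (40S) subunit. RNA of the mouse aortic arch and thoracic aorta was sequenced in 3 libraries of genotype Apoe-/- MiR26b-/- and 3 libraries of genotype Apoe-/- control, all taken after 4 weeks on HFD. Every library, the controls included, therefore lacks Apoe, whose loss raises plasma cholesterol and leads to plaque in the arteries, and the knockouts additionally lack the microRNA gene Mir26b. The comparison asks how ribosomal protein mRNA differs in the vessel when Mir26b is missing as well. The labels do not say in which cells the deletion acts and give no age. Nor do they tie the libraries to separate mice, and the p-values then measure library spread, which may be technical.

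Cytosolic ribosomal proteins join the ribosomal RNAs to form the 60S and 40S subunits, and since each is needed in a fixed number of copies per ribosome, their mRNAs are made and translated together. Most of these mRNAs start with a terminal oligopyrimidine tract, a run of C and T bases at the cap, through which mTOR signalling and the RNA-binding protein Larp1 set their translation and stability. The genome also carries many processed copies of them, most of which are pseudogenes.

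The start sites of 7 members with a pyrimidine run are shown because this run is the sequence feature the family is known for; Rpl5 is shown as one of the more numerous members without a run over the annotated start. Each window holds the 15 bases before and the 15 bases from the annotated start, from RefSeq on GRCm38.p6, read on the gene's strand; capitals mark the run of C and T that covers the start.
Rpl38 (chr11:114668565-114668594, plus strand): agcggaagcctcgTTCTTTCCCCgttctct
Rpl35 (chr2:39005117-39005146, minus strand): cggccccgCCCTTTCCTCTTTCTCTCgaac
Rps10 (chr17:27635230-27635259, minus strand): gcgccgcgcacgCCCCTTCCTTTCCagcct
Rps27 (chr3:90213634-90213663, minus strand): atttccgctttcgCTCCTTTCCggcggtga
Rps6 (chr4:86857353-86857382, minus strand): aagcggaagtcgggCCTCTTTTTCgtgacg
Rpl28 (chr7:4792950-4792979, plus strand): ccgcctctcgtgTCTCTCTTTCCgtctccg
Rpl7a (chr2:26910792-26910821, plus strand): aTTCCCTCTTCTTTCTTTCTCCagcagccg
Rpl5 (chr5:107900513-107900542, plus strand): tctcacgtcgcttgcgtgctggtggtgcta
A run of at least 8 such bases over the start was found in 18 of the 74 promoters listed for 62 members (24.3%), against 1268 of all 32851 promoters (3.86%). A run beside the annotated start, as before it in Rpl4 or after it in Rpl18, was not counted.

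The libraries held 51634139 to 54817547 deposited counts each. In each library 1 low value recurred in place of 1, between 0.9004 and 1.0685, as division by a constant per library would give; over that value the totals were 48771971 to 57798164, and shares within a library do not depend on it. The table had 0 rows of microRNA genes, so the deletion of Mir26b was not checked here. Smooth muscle markers were abundant in every library (summed level 22253, 20877 and 24644 CPM in the knockouts and 30840, 30947 and 35446 CPM in the controls; CPM are counts scaled to library depth with TMM factors). Macrophage markers were higher in every knockout library (967, 1063 and 407 CPM) than in every control library (246, 235 and 177 CPM). Knockout replicate 3 stood between the other knockouts and the controls in these markers, and the same library was the lowest knockout for 77 of the 80 tested ribosomal protein genes. The share of all tested rows in which it was the lowest knockout was not counted.

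Ribosomal protein genes took a larger part of the RNA in the knockouts. They held 3.01%, 2.97% and 2.66% of the deposited counts in knockout replicates 1, 2 and 3, against 2.25%, 2.49% and 2.38% in control replicates 1, 2 and 3. All 3 knockout libraries lay above all 3 control libraries. The means were 2.88 ± 0.191% in the knockouts and 2.37 ± 0.119% in the controls (SD, n = 3 each), a difference of 0.506 percentage points or a ratio of 1.21. Since the tissue was taken whole, more cells of a type rich in these mRNAs and more of the mRNAs per cell cannot be told apart.

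**Figure D1:**
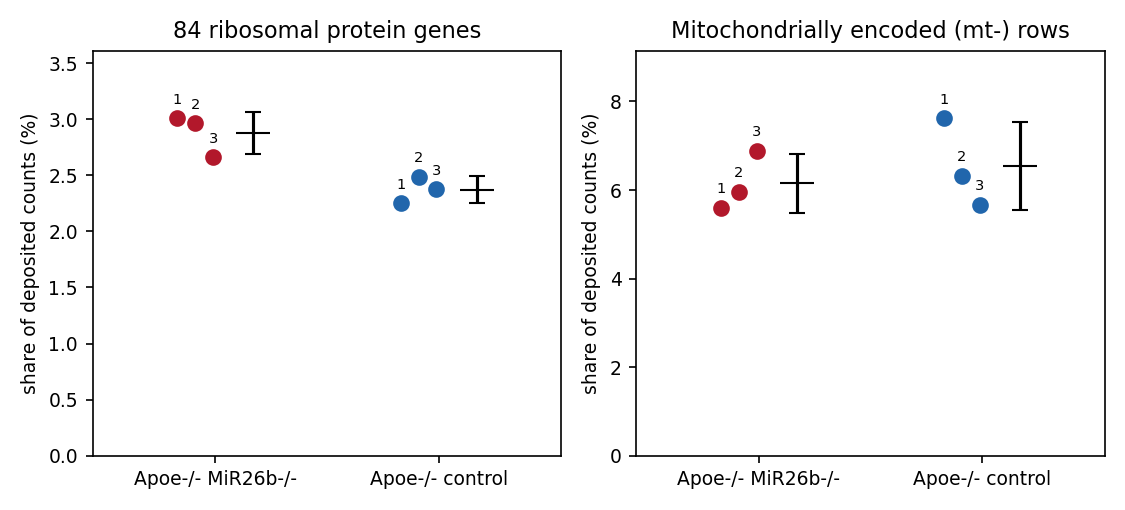
Share of deposited counts, in percent, held by the 84 ribosomal protein genes (left panel) and by mitochondrially encoded rows (right panel), with 1 point per library numbered by replicate and the bar giving mean ± SD. The ribosomal protein share was 2.66% to 3.01% in Apoe-/- MiR26b-/- and 2.25% to 2.49% in Apoe-/- control libraries, without overlap, while the mitochondrial shares of the groups overlapped.

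Both subunits had higher shares in the knockouts. Genes of the 60S subunit held 1.76 ± 0.115% of counts in the knockouts and 1.45 ± 0.0699% in the controls, and genes of the 40S subunit held 1.12 ± 0.0752% in the knockouts and 0.920 ± 0.0494% in the controls (SD, n = 3 each). The 60S part of all ribosomal protein counts was 61.1% in the knockouts and 61.2% in the controls. On the deposited TPM values, which are scaled by transcript length, the members held 9.82%, 9.58% and 8.82% of the total in the knockouts and 7.49%, 8.35% and 8.23% in the controls, again without overlap. Rows encoded by the mitochondrial genome did not separate the groups, at 5.59%, 5.96% and 6.89% of counts in the knockouts and 7.62%, 6.32% and 5.67% in the controls.

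The difference was small and even across the family. Of the 84 members, 80 were abundant enough to be tested, and 79 of them had a positive log2 difference, knockout minus control. The median over the 80 was 0.25, a fold of 1.19, with quartiles of 0.18 and 0.29, while over all 17392 tested rows the median was -0.0033. The interquartile range was 0.109 for the members and 0.373 for all tested rows. Among 4025 other genes in the range of level that holds most members (mean log2 CPM 5.67 to 9.37), the median was -0.06 and the interquartile range 0.258. Of these other genes 37.4% had a positive log2 difference. Of the members, 75 lay between 0.1 and 0.4. The medians were 0.25 for the 60S and 0.26 for the 40S genes.

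**Figure D2:**
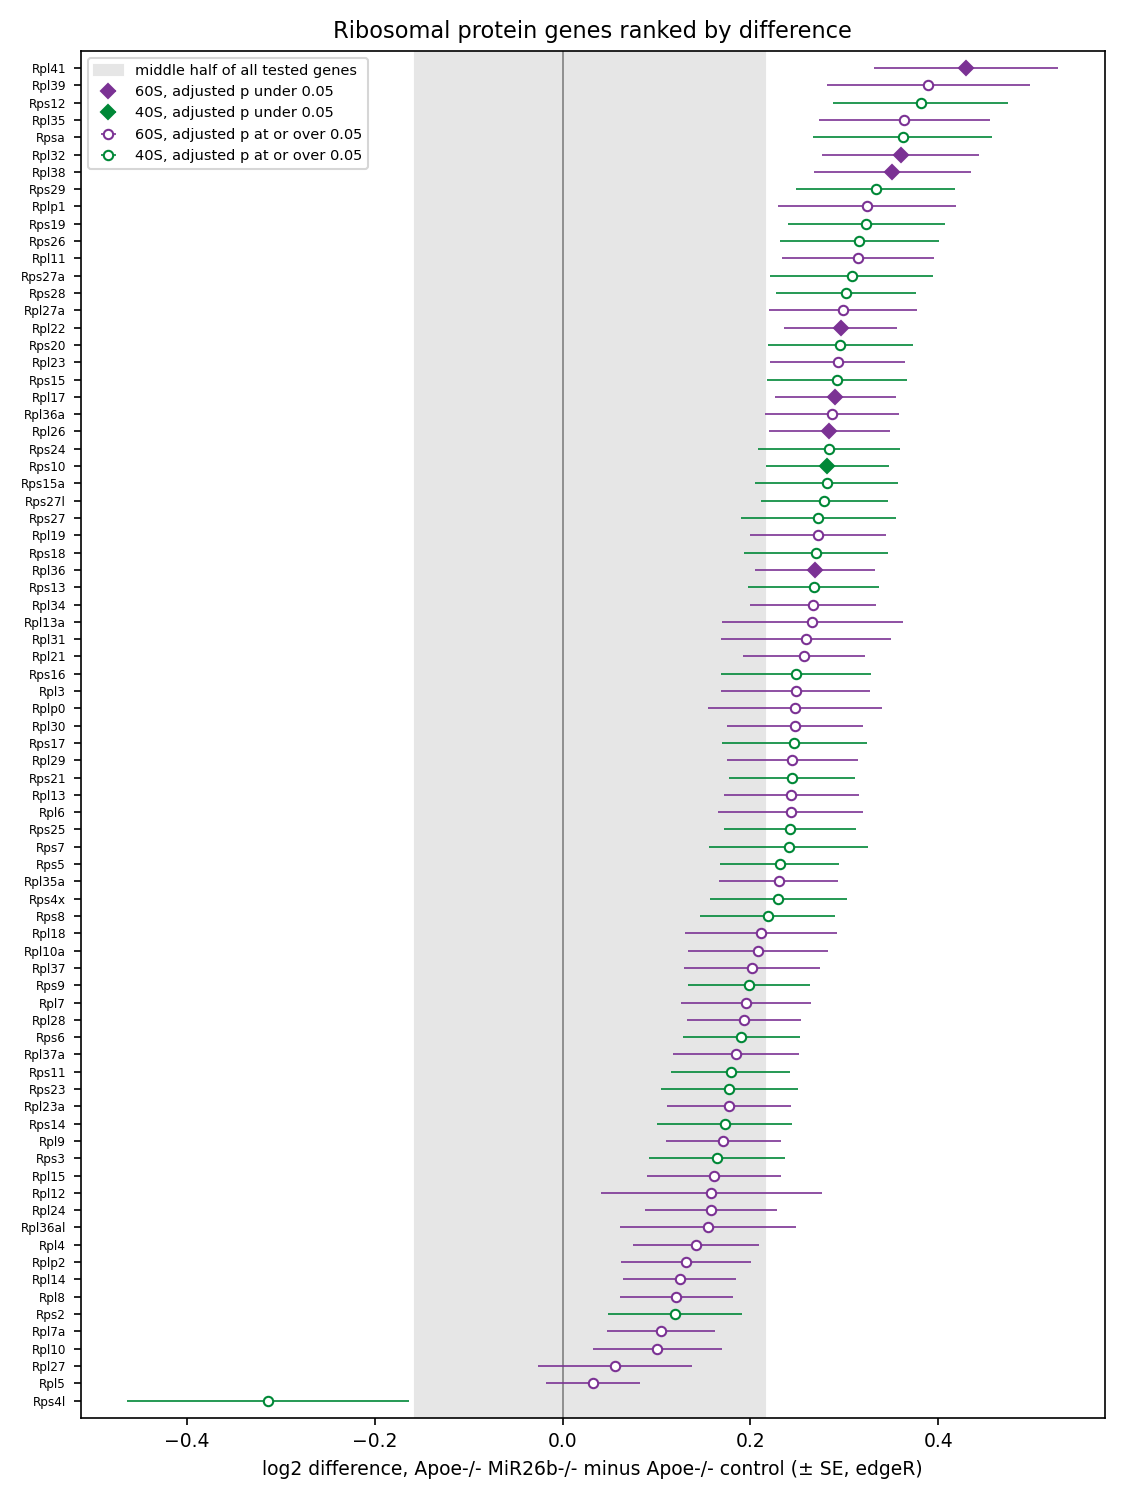
Log2 difference of 78 of the 80 tested ribosomal protein genes, Apoe-/- MiR26b-/- minus Apoe-/- control, with its standard error from edgeR; filled diamonds passed an adjusted p of 0.05, colours give the subunit and the grey band spans the quartiles of all tested genes. Apart from Rps4l at -0.31 every gene shown lies above 0, up to Rpl41 at 0.43; Rpl39l, near the limit of detection, and 1 gene that rose are not drawn.

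Few members passed the test across the whole table one by one. With edgeR's quasi-likelihood test and Benjamini-Hochberg adjustment over all tested rows, 9 of the 80 (11.25%) rose at an adjusted p under 0.05, where 6.5% of all tested rows rose. None fell, where 3.84% of all tested rows did; at an unadjusted p under 0.05 the fallen members were also 0, where the rate of all rows was 13.2%, and each other tool called 0 lower. Another 41 members had an adjusted p between 0.05 and 0.1, a band that was not counted over all rows. At an unadjusted p under 0.05, 64 members were higher in the knockouts, 35 of the 60S and 29 of the 40S, where the rate over all tested rows was 17.5%. Every knockout library lay above every control library for 65 of the 80 members (81.25%), where this held for 18.9% of all tested rows. It held the other way for 0 members and for 17.2% of all tested rows. All members are read from the same 6 libraries, so these counts are not made of independent observations.

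Without knockout replicate 3, 69 members were called higher, where 17.2% of all rows were. Without any one of the other 5 libraries 0 members were called higher, where 0.0396% (without knockout replicate 1), 0.227% (without knockout replicate 2), 0% (without control replicate 1), 0.293% (without control replicate 2) and 0% (without control replicate 3) of all rows were. The count of members thus fell with that of the whole table when any of these 5 libraries was left out. It was lower with knockout replicate 3 than without it, while the median log2 difference of the members was 0.20 to 0.31 in these 6 fits. DESeq2 called 55 members higher on the same counts, where it called 13% of all rows higher, and 0 lower, where it called 8.46% of all rows lower.

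**Figure D3:**
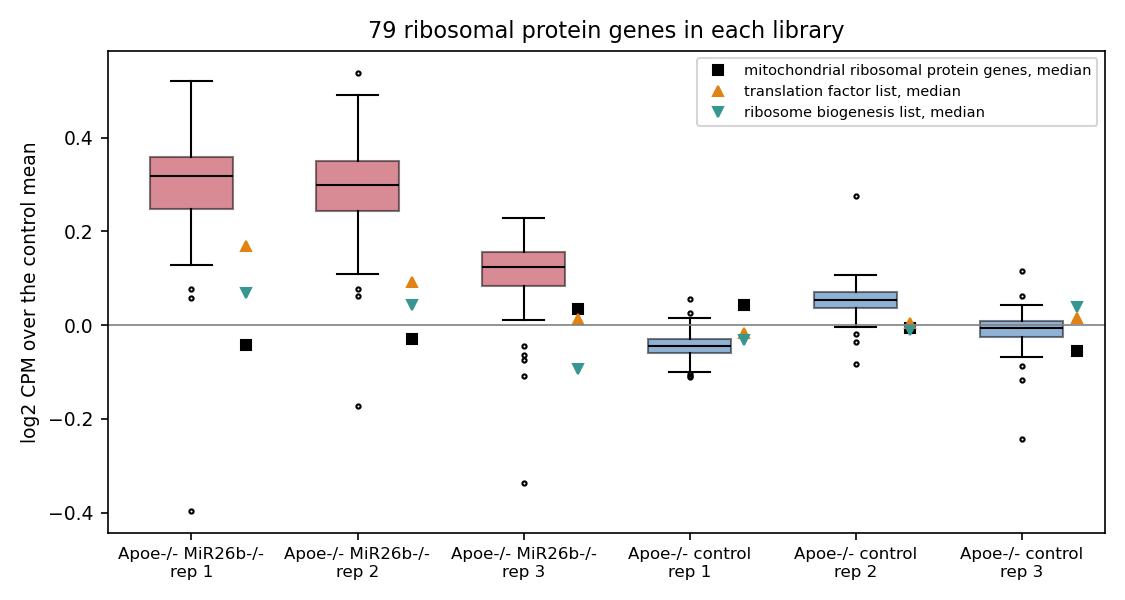
Log2 CPM of 79 ribosomal protein genes in each library relative to the mean of the controls, as boxes over genes (median, quartiles, whiskers to 1.5 interquartile ranges, points beyond), with medians of 3 other gene lists as markers. The boxes of Apoe-/- MiR26b-/- replicates 1, 2 and 3 centre on 0.32, 0.30 and 0.12, and those of Apoe-/- control replicates 1, 2 and 3 on -0.04, 0.05 and -0.01.

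Within a library the members differed from the control mean by like amounts. The median log2 level over the control mean was 0.32, 0.30 and 0.12 in knockout replicates 1, 2 and 3 and -0.04, 0.05 and -0.01 in control replicates 1, 2 and 3. The interquartile range over genes within a library was 0.112, 0.107 and 0.0717 in the knockouts and 0.0297, 0.0346 and 0.0349 in the controls, so the genes were spread more widely around the median in each knockout library than in any control library. The control mean is part of the scale, which narrows the spread in the controls. Knockout replicates 1 and 2 both lay above all controls for 77 of the 80 members, a count that was not made over all tested rows.

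Several cell type markers moved with the groups, in the edgeR fit where 6.5% of all tested rows rose and 3.84% fell. All 5 macrophage markers rose, 3 of 4 fibroblast markers rose (summed level 4076, 4087 and 2955 CPM in the knockouts and 2195, 2229 and 2092 CPM in the controls) and 3 of 5 smooth muscle markers fell. Their part in the ribosomal protein levels was not tested. Brown fat markers summed to 96.1, 143 and 629 CPM in the knockouts and 888, 437 and 206 CPM in the controls, and 0 of 4 were called. With the mean level of fat markers as a covariate the median log2 difference of the members was 0.18 and 77 of 80 were still fitted higher. In that fit 43 members were higher at an unadjusted p under 0.05, where 12.3% of all tested rows were. At the adjusted threshold 0 members passed, where 0.54% of all tested rows rose. Of the endothelial markers 2 of 4 rose, and in the other lists of blood, white fat and skeletal muscle cells 0 were called. B cell markers summed to 442 CPM in control replicate 2 and to between 28.7 and 37.5 CPM in the other libraries. No marker row of these lists was at 0 in all libraries.

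Among the 9 members that rose, Rpl41 (ENSMUSG00000093674, chromosome 10, 128548114 to 128549305, GRCm38) had the largest difference; it encodes the shortest ribosomal protein. It stood at 505, 511 and 406 CPM in the knockouts and 346, 363 and 347 CPM in the controls, with the lowest knockout above the highest control. Its log2 difference was 0.43 (SE 0.10, edgeR adjusted p = 0.044). Rpl32 (chromosome 6, 115805505 to 115808747), of the large subunit, stood at 293, 287 and 243 CPM in the knockouts against 209, 223 and 210 CPM in the controls, a log2 difference of 0.36 (SE 0.08, adjusted p = 0.045). Rpl38 (chromosome 11, 114668524 to 114672331), whose loss in mice alters translation of Hox mRNAs and skeletal patterning, had 118, 121 and 101 CPM in the knockouts and 87.3, 94.4 and 84.7 CPM in the controls, a log2 difference of 0.35 (SE 0.08, adjusted p = 0.048). In each of these genes knockout replicate 3 was the lowest knockout library and still exceeded the controls.

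Rpl22 (chromosome 4, 152325742 to 152334071), a protein of the 60S surface with a paralogue outside the naming rule, had 216, 209 and 199 CPM in the knockouts and 162, 177 and 169 CPM in the controls, and with an adjusted p of 0.036 it had the lowest p-value of the family in the edgeR fit (log2 difference 0.30, SE 0.06). Rpl17 (chromosome 18, 74998558 to 75003381) had 402, 391 and 358 CPM in the knockouts against 306, 322 and 314 CPM in the controls. The groups overlapped in neither of these genes.

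Rpl26 (chromosome 11, 68901583 to 68906989), which lines the nascent peptide exit and also binds the p53 mRNA in human cells, had 375, 374 and 338 CPM in the knockouts and 288, 304 and 301 CPM in the controls. Rpl36 (chromosome 17, 56613416 to 56614243) had 154, 159 and 143 CPM in the knockouts and 123, 133 and 122 CPM in the controls. Rps10 (chromosome 17, 27630418 to 27636669) is the 1 gene of the small subunit among the 9; it had 277, 283 and 251 CPM in the knockouts and 216, 230 and 222 CPM in the controls. These 3 genes and Rpl17 had log2 differences of 0.27 to 0.29 and edgeR adjusted p of 0.042 to 0.047. All 9 lost the call when any library other than knockout replicate 3 was left out, where at most 0.293% of all rows were called higher. All 9 kept it without knockout replicate 3, where 17.2% of all rows were called higher.

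Other large differences missed the adjusted threshold. Rpl39 (chromosome X, 37082520 to 37085402), a very short protein at the peptide exit, had 160, 158 and 124 CPM in the knockouts and 108, 120 and 109 CPM in the controls, with a log2 difference of 0.39 (SE 0.11, adjusted p = 0.066). Rpsa (chromosome 9, 120127689 to 120132369), a small-subunit protein that was also described as a laminin receptor, had 724, 732 and 594 CPM in the knockouts and 518, 556 and 520 CPM in the controls (log2 difference 0.36, SE 0.10, adjusted p = 0.058). Rpl35 (chromosome 2, 39001580 to 39005624) had 254, 245 and 207 CPM in the knockouts and 175, 194 and 179 CPM in the controls (log2 difference 0.36, SE 0.09, adjusted p = 0.053). The groups did not overlap in any of the 3.

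The acidic stalk proteins, which recruit translation factors to the ribosome, differed by unlike amounts. Rplp1 stood at 686, 698 and 565 CPM in the knockouts and 501, 539 and 517 CPM in the controls (log2 difference 0.32, SE 0.09, adjusted p = 0.073). Rplp0, the stalk base, had 887, 891 and 733 CPM in the knockouts and 693, 734 and 688 CPM in the controls; knockout replicate 3 lay just under the highest control. Rplp2 had 126, 139 and 135 CPM in the knockouts and 126, 127 and 112 CPM in the controls, so its groups overlapped as well. The log2 differences of Rplp0 and Rplp2 were 0.25 (SE 0.09, adjusted p = 0.128) and 0.13 (SE 0.07, adjusted p = 0.253), and whether the 3 genes differ from each other was not tested.

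Rpl11 and Rpl5 form a particle with 5S RNA that can bind Mdm2, the ubiquitin ligase of p53, and in people RPL5, RPL11 and RPS19 are mutated in Diamond-Blackfan anaemia. Rpl11 had 382, 367 and 320 CPM in the knockouts and 278, 300 and 282 CPM in the controls (log2 difference 0.31, SE 0.08, adjusted p = 0.055). Rps19 had 236, 226 and 199 CPM in the knockouts and 169, 189 and 170 CPM in the controls (log2 difference 0.32, SE 0.08, adjusted p = 0.056). Neither gene's groups overlapped, while Rpl5 had the lowest difference of the abundant members and is described with its copies. Rps6, the substrate of the S6 kinases downstream of mTOR, had 601, 588 and 550 CPM in the knockouts and 491, 516 and 517 CPM in the controls (log2 difference 0.19, SE 0.06, adjusted p = 0.095).

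Levels per length, in the deposited TPM, ranged over the family by orders of magnitude. Rpl13a, which can leave the ribosome to repress translation of inflammatory mRNAs in human monocytes, was the most abundant at 4209, 4101 and 3601 TPM in the knockouts and 3190, 3719 and 3194 TPM in the controls. Rplp1, Rps27, Rps15 and Rps14 followed, with means over all libraries of 3356, 2343, 2303 and 2254 TPM. Their spreads overlap between neighbours from Rps27 to Rps14, so that order is not firm. For Rpl13a control replicate 2 exceeded knockout replicate 3, and its log2 difference in counts was 0.27 (SE 0.10, adjusted p = 0.119). Rps15 and Rps14 had log2 differences of 0.29 (SE 0.07, adjusted p = 0.055) and 0.17 (SE 0.07, adjusted p = 0.163). The other 4 members were too low to test: Rpl3l and Rpl6l, with mean TPM of 0.106 and 0.0425, and Rpl10l and Rpl32l, which were listed at 0 in all 6 libraries. The annotation calls Rpl6l, Rpl32l and Rps4l processed pseudogenes, Rps4l a transcribed one.

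The genes whose groups overlapped were 15: Rps2, Rps23, Rps4l, Rpl5, Rpl10, Rpl12, Rpl13a, Rpl15, Rpl18, Rpl24, Rpl27, Rpl36al, Rpl39l, Rplp0 and Rplp2. Rpl27 (chromosome 11, 101442298 to 101445529) had 222, 219 and 193 CPM in the knockouts and 188, 217 and 205 CPM in the controls (log2 difference 0.06, SE 0.08, adjusted p = 0.684). Rpl7a had 428, 425 and 394 CPM in the knockouts and 384, 386 and 388 CPM in the controls; its groups did not overlap, but its log2 difference was only 0.11 (SE 0.06, adjusted p = 0.270).

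Ribosomal protein mRNAs have near-identical copies elsewhere in the genome, and the authors' counting shared reads between them. A search of the coding sequences found 561 other rows that match at least 90% of a member's coding sequence at 95% identity or more, for 75 members; 544 are annotated as processed pseudogenes and 17 as protein-coding. The copies held under 1% of the summed counts for 55 members, over 10% for 12 and over 50% for 5. Whole rows were summed, also where a copy is part of a longer gene. The share of 10.6% for Rpl21 came mostly from the longer gene BC004004, and its reads were not shown to come from the copy. BC004004 had 59.9, 60.3 and 59.3 CPM in the knockouts and 59.6, 58.8 and 55.4 CPM in the controls. The log2 difference of Rpl21 was 0.26 for its own row and 0.24 for the sum. The first 30 coding bases are shown for 3 members and the copy that holds most of their reads, because these bases are the same in both rows. A read within them cannot tell the rows apart, while the untranslated ends were not compared. Capitals mark the start codon, and the sequences are from GENCODE mouse release M21 on GRCm38.
Rpl5 (chromosome 5): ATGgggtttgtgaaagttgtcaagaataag
Gm15500 (chromosome 7): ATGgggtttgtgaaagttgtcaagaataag
Rpl12 (chromosome 2): ATGccgcccaagttcgaccccaacgaggtc
Gm10275 (chromosome 10): ATGccgcccaagttcgaccccaacgaggtc
Rps12 (chromosome 10): ATGgccgaggaaggcatagctgctggaggt
Rps12-ps3 (chromosome 19): ATGgccgaggaaggcatagctgctggaggt
In these 3 pairs the whole coding sequences, of 894, 498 and 399 bases in that order, are identical.

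Rpl5 (ENSMUSG00000058558, chromosome 5, 107900502 to 107909005) stood at 52.4, 51.9 and 48.3 CPM in the knockouts and 50.6, 49.1 and 49.5 CPM in the controls. Its log2 difference of 0.03 (SE 0.05, edgeR adjusted p = 0.702) was the lowest among the abundant members, and its groups overlapped. The copy Gm15500, a transcribed processed pseudogene on chromosome 7 from 114705217 to 114706235, held 673, 644 and 575 CPM in the knockouts and 528, 539 and 537 CPM in the controls. Copies held 92.1% of the summed counts of Rpl5 and its copies. Summed over the family, the levels were 725, 696 and 623 CPM in the knockouts and 579, 588 and 587 CPM in the controls, without overlap, and the log2 difference was 0.22 (SE 0.07, adjusted p = 0.096). The low value of Rpl5 was thus that of the row, while the sum lay near the family median of 0.25.

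Rpl12 followed the same pattern. Its own row had 21.5, 23.6 and 17.3 CPM in the knockouts and 18.3, 18.2 and 19.4 CPM in the controls, against 398, 398 and 330 CPM in the knockouts and 291, 315 and 302 CPM in the controls for Gm10275. Copies held 94.5% of the counts, and the log2 difference was 0.16 (SE 0.12) for the row and 0.30 (SE 0.09, adjusted p = 0.076) for the sum. For Rpl10, an X-linked protein of the subunit interface, the copies' share varied between libraries from 39.96% to 49.4%. Its row had 455, 438 and 446 CPM in the knockouts and 406, 393 and 450 CPM in the controls, and the log2 difference was 0.10 (SE 0.07, adjusted p = 0.372) for the row and 0.18 (SE 0.08, adjusted p = 0.195) for the sum. Its groups overlapped in the row and, since knockout replicate 3 and control replicate 3 had 747 and 749 CPM, in the sum.

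Rps12, a small-subunit protein, had the third largest difference among abundant members in its own row, 61.3, 61.9 and 49.8 CPM in the knockouts and 42.4, 46.3 and 44.0 CPM in the controls (log2 difference 0.38, SE 0.09, adjusted p = 0.0505). Rps12-ps3, which the annotation calls protein-coding, held 451, 463 and 395 CPM in the knockouts and 333, 360 and 333 CPM in the controls and rose (log2 difference 0.35, SE 0.08, adjusted p = 0.043), as did the sum (0.36, SE 0.08, adjusted p = 0.044). For Rpl27a, 56.0% of the counts lay in copies, mainly Gm7536, which rose with a log2 difference of 0.38 (SE 0.07, adjusted p = 0.032). For Rps23, 50.2% lay in copies, and the log2 difference was 0.18 (SE 0.07) for the row and 0.21 (SE 0.07, adjusted p = 0.1004) for the sum.

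**Figure D4:**
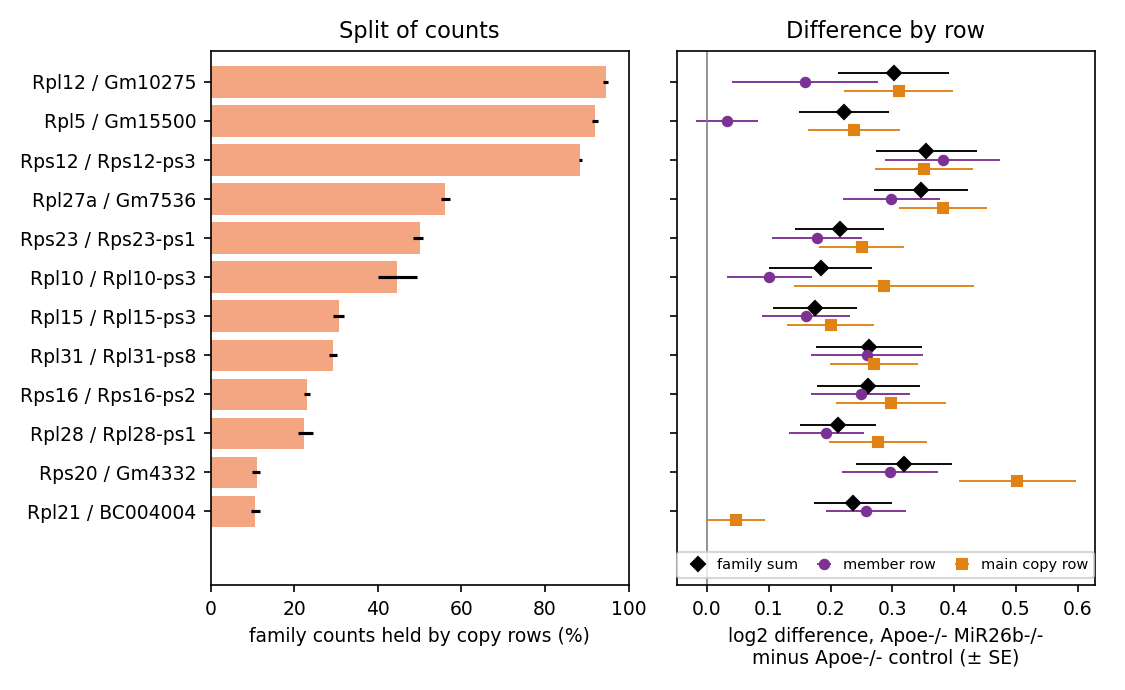
The 12 members with over 10% of their summed counts in near-identical copies. The left panel gives that share over all libraries with its range by library (black line), and the right panel the log2 difference, Apoe-/- MiR26b-/- minus Apoe-/- control, with its standard error for the sum, the member's own row and its main copy. The row of Rpl5 lies at 0.03 and its sum at 0.22; BC004004, a longer gene that contains a copy of Rpl21, lies at 0.05.

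With each member summed with its copies, 14 members rose and 0 fell, where 6.52% of all rows rose in that fit. All 9 earlier calls were kept, and Rpl23, Rpl27a, Rpl36a, Rps12 and Rps27l were added. The median log2 difference stayed at 0.25. In the fit without summing, 6.5% of all tested rows rose and 3.84% fell. Of the 44 copy rows abundant enough to test there, 5 rose and 0 fell, with a median of 0.35. Besides Gm7536 and Rps12-ps3 these were Gm4332, a copy of Rps20 (log2 difference 0.50, SE 0.09, adjusted p = 0.033), Rpl37rt (0.76, SE 0.13, adjusted p = 0.029) and Rps27rt (0.42, SE 0.09, adjusted p = 0.042). Rpl37rt had 13.3, 13.7 and 13.9 CPM in the knockouts and 8.18, 6.65 and 9.19 CPM in the controls. Reads of Rpl37 and Rps27 may be shared with these 2 rows, so the rows cannot be separated from their parents.

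Paralogues of tissue-restricted use were nearly absent. Rpl3l, the paralogue of striated muscle, had a mean of 0.106 TPM against 856 TPM for Rpl3. Rpl39l, known from testis, had 0.374, 0.209 and 0.0189 CPM in the knockouts and 0, 0.192 and 0.190 CPM in the controls, and its mean of 0.453 TPM compares with 539 TPM for Rpl39. Its log2 difference of 0.65 had an SE of 1.05 and an adjusted p of 0.712, and at this depth no difference was detectable. Rpl10l, also of testis, was listed at 0 in every library.

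The ratio of paralogue to partner was compared for the 5 pairs with both rows above 0 in every library, by an exact two-sided permutation test whose smallest possible p is 0.1 with 3 libraries against 3. Rps4l, annotated as a transcribed processed pseudogene, was the 1 tested member with a negative log2 difference (-0.31, SE 0.15, edgeR adjusted p = 0.214). It had 6.79, 7.93 and 7.08 CPM in the knockouts and 8.75, 10.8 and 7.55 CPM in the controls, so its groups overlapped. Its X-linked partner Rps4x had 797, 755 and 693 CPM in the knockouts and 614, 654 and 646 CPM in the controls (0.23, SE 0.07, adjusted p = 0.090). In TPM, Rps4l stood at 1.02% of Rps4x in the knockouts and 1.48% in the controls, a difference in log2 ratio of -0.53 (exact permutation p = 0.1, 0.25 after Benjamini-Hochberg adjustment over the 5 pairs). The ratio was lower in all 3 knockout libraries than in all 3 controls, the most extreme outcome this design allows, and it did not pass the threshold.

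Rpl36al and Rpl36a encode nearly the same protein. Rpl36al had 114, 113 and 91.0 CPM in the knockouts and 91.9, 98.1 and 95.5 CPM in the controls, with overlap, whereas Rpl36a had 162, 166 and 142 CPM in the knockouts and 126, 132 and 127 CPM in the controls, without it. In TPM Rpl36al stood at 59.5% of Rpl36a in the knockouts and 65.3% in the controls, a log2 ratio difference of -0.14 (exact permutation p = 0.1, adjusted 0.25). Rps27l, which p53 induces in human cells, stood at 14.0% of Rps27 in the knockouts and 13.8% in the controls (log2 ratio difference 0.03, exact permutation p = 0.7, adjusted 0.7). The ratios of Rpl22l1 to Rpl22 and of Rpl7l1 to Rpl7 differed by -0.10 and -0.13 on the log2 scale (exact permutation p = 0.3 and 0.2, adjusted 0.375 and 0.333). No ratio passed the threshold, and with 3 libraries a group none could.

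Coding length varied with the size of the difference over the 78 members of at least log2 CPM 4 on average. The Spearman coefficient of coding length and log2 difference was -0.466 and the Pearson coefficient with log2 length was -0.506, as descriptions over genes that share the same 6 libraries. The shortest 20 genes, up to 363 bases, had a median log2 difference of 0.28, and the longest 20 had 0.19. Rpl41, Rpl39 and Rpl38, which are short, were among the highest, and Rpl7a and Rpl4 among the longer and lower ones. Rpsa and Rpl3 were long with differences of 0.36 and 0.25. Rpl5 was also long, and its difference was 0.03 in its own row but 0.22 with its copies summed. The coefficient was -0.445 with copies summed and -0.434 without knockout replicate 3. Whole transcript length gave a weaker coefficient of -0.231.

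**Figure D5:**
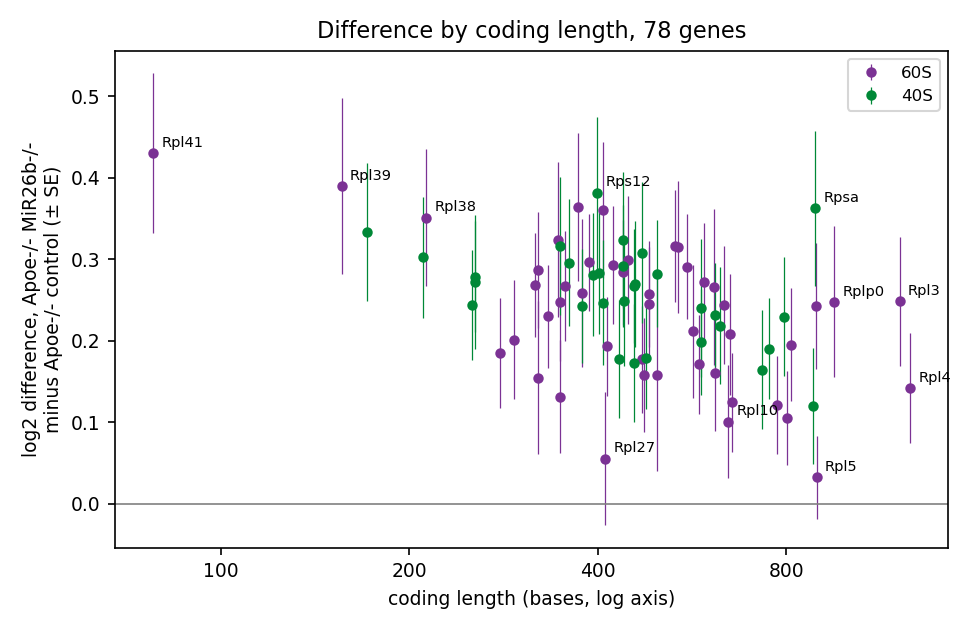
Log2 difference with its standard error, Apoe-/- MiR26b-/- minus Apoe-/- control, against coding length in bases (log axis) for 78 ribosomal protein genes, coloured by subunit. Short genes such as Rpl41 at 0.43 lie high and several longer genes such as Rpl4 at 0.14 lie low. Rpl5 is drawn at the 0.03 of its own row and lies at 0.22 when summed with its copies.

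Other genes of like transcript length had lower medians. Coding length, which had the stronger coefficient over the members, was not taken for the other genes. Among other genes of at least log2 CPM 4, the median was 0.02 for transcripts up to 600 bases (65 genes), 0.05 for 600 to 900 (227 genes) and 0.03 for 900 to 1500 (745 genes). The members in the same bins had medians of 0.28, 0.24 and 0.24. For 1500 to 3000 bases the median was -0.01 for the other genes (2767 genes) and 0.21 for 9 members. For transcripts over 3000 bases the other genes had a median of -0.07 and 2 members had 0.29.

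Members with and without a pyrimidine run over the annotated start had close medians. The 17 tested members with a pyrimidine run over an annotated start had a median log2 difference of 0.27, and the 42 with a listed promoter but no such run had 0.25. The 42 include genes with a run just beside that start, such as Rpl4. These medians therefore do not compare genes with and without the tract. The 7 members shown with the run spanned log2 differences of 0.11 for Rpl7a to 0.36 for Rpl35. In the window from 250 bases before to 50 bases after the start, read on both strands, CTTTCC occurred in 37 of the 74 member promoters and in 26.6% of all promoters. CCGGAAG occurred in 35.1% of member promoters and in 8.86% of all. Matches describe the letters in these windows and identify no factor. The tested members lie on 19 chromosomes. On chromosome 1, with Mir26b, lie 3 of them, of which the nearest, Rpl37a, lies 1.68 Mb from the host gene Ctdsp1 and had a log2 difference of 0.18.

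Ribosomal proteins that the naming rule leaves out lay near the members. All 5 had a positive log2 difference, with a median of 0.24, and 1 rose. That was Fau, whose product is a ubiquitin-like protein fused to a 40S protein, with 282, 284 and 248 CPM in the knockouts and 201, 214 and 193 CPM in the controls (log2 difference 0.42, SE 0.08, adjusted p = 0.031). Rack1, the signalling scaffold of the 40S head, had 587, 563 and 498 CPM in the knockouts and 448, 459 and 454 CPM in the controls (0.28, SE 0.08, adjusted p = 0.064). Of the 321 rows named as ribosomal protein pseudogenes 20 were abundant enough to test. Of these 1 rose, the Rps12-ps3 row already given, and 0 fell, where 6.5% of all tested rows rose and 3.84% fell. The median of the 20 was 0.27.

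The ribosomal proteins of mitochondria, made from nuclear genes for a separate ribosome, had a median difference near 0. Of 86 rows 81 were tested, and the median log2 difference was -0.01. Of the 81, 0 rose and 1 fell, where 6.5% of all tested rows rose and 3.84% fell. The 1 that fell was Mrps12, with 9.43, 10.3 and 11.2 CPM in the knockouts and 13.8, 14.7 and 13.1 CPM in the controls (log2 difference -0.42, SE 0.10, adjusted p = 0.042). By library the medians of this list over the control mean were -0.04, -0.03 and 0.03 in the knockouts and 0.04, -0.01 and -0.06 in the controls, within which the groups overlapped.

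Translation factors and other mRNAs with a terminal oligopyrimidine tract had a median between those of the members and of all tested rows. Of 20, 0 passed the adjusted threshold, where 6.5% of all tested rows rose and 3.84% fell. At an unadjusted p under 0.05, 5 were higher and 0 lower, where the rates over all tested rows were 17.5% and 13.2%. The median was 0.10, and 16 were fitted higher. Tpt1, the translationally controlled tumour protein, had 1317, 1373 and 1190 CPM in the knockouts and 1093, 1104 and 1045 CPM in the controls (log2 difference 0.26, SE 0.08, adjusted p = 0.075). The elongation factor subunits Eef1d and Eef1b2 each had a log2 difference of 0.19 (SE 0.05 and 0.06, adjusted p = 0.065 and 0.074). In all 3 genes the groups did not overlap.

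Genes that build ribosomes also had a median difference near 0. Over all tested rows 6.5% rose and 3.84% fell, and at an unadjusted p under 0.05 17.5% were higher and 13.2% lower. Of 30 ribosome biogenesis genes, which include the RNA polymerase I factors and box C/D and H/ACA proteins, 0 rose and 0 fell in the edgeR fit, 0 were higher and 2 lower at an unadjusted p under 0.05, and the median was 0.01. The 2 were Rrn3 and Polr1b, with log2 differences of -0.14 (SE 0.05, adjusted p = 0.113) and -0.21 (SE 0.08, adjusted p = 0.138). In the list of growth signalling genes, which also holds the member Rps6, the gene Rps6kb2 fills 2 of the 17 rows with the same values. Of the 17 rows 0 rose and 1 fell, with a median of -0.06, and at an unadjusted p under 0.05 2 were higher and 5 lower. The 1 that fell was Rheb, the GTPase that activates mTOR complex 1, with 107, 109 and 108 CPM in the knockouts and 123, 120 and 126 CPM in the controls (log2 difference -0.19, SE 0.05, edgeR adjusted p = 0.049). Eif4g1, the scaffold of the cap-binding complex, had 345, 356 and 348 CPM in the knockouts and 405, 388 and 395 CPM in the controls, without overlap (-0.18, SE 0.05, adjusted p = 0.072). Mtor itself had 58.3, 59.6 and 72.1 CPM in the knockouts and 86.1, 70.5 and 76.1 CPM in the controls, with overlap (-0.29, SE 0.11, adjusted p = 0.127). Myc, a transcription factor that drives ribosome production, had 10.3, 12.1 and 6.40 CPM in the knockouts and 5.82, 6.03 and 5.88 CPM in the controls; the groups did not overlap, yet the adjusted p was 0.092 (log2 difference 0.70, SE 0.22). The differences between these lists and the ribosomal protein genes were described by their medians and were not tested.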

How the data were processed

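RNA of 6 aortic samples was sequenced; groups and replicate numbers are those of the sample labels. The deposited estimated counts come from kallisto 0.46.2, with FastQC 0.11.8, Trim Galore 0.6.5 and GRCm38, per the submitters' processing notes; kallisto assigns reads to transcripts and shares a read between similar ones. The counts appear to be scaled by a constant per library; that step is not given in the sources used here and was not undone. The deposited TPM were rescaled by the authors and are treated as a signal, used for levels per length.

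Members and gene lists were chosen with earlier results of these data known. Counts were rounded, filtered with filterByExpr (minimum count 10), TMM-scaled and tested over all 17392 rows with edgeR 4.0.16 (quasi-likelihood test) in R 4.3.3, with Benjamini-Hochberg adjustment and a threshold of 0.05; the standard error is the log2 difference over the root of F. The test was tried on simulated counts. Copies were found with blastn 2.17.0 against GENCODE M21 transcripts, whose GRCm38 coordinates are given. The labels do not say whether libraries keep strand, so overlapping antisense genes cannot be separated.

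All members were counted. Named were those called, the 5 largest and lowest differences at mean log2 CPM of at least 0, the 5 of highest and lowest TPM, paralogue pairs, 8 of known role, and in other lists up to 3 genes of lowest p and those called; Mtor was added after its values were seen; Rpl7a and Rpl4 were shown as examples of length. Of the 9 members that rose 1, and of the 5 ribosomal proteins outside the rule 1, are counted but not reported here by name. A list of snoRNA host genes had 0 rows. Replicates differed by more than sampling noise (mean chi-square per gene 11.5 to 103 on the counts as deposited). After each group's mean was subtracted per gene, the deviations of same-numbered libraries correlated at -0.092, 0.234 and 0.0757. Libraries of unlike number were not compared, so these values do not settle a pairing. The numbers were not used as pairs in the reported fit. Alternatives were other scaling, filters, tools (DESeq2 1.42.0, limma 3.58.1), a fat covariate, the replicate block, omission of each library and summing of copies.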

Additional observations from a re-analysis of the deposited data

How the results depend on the processing

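The direction of the ribosomal protein difference held under all 21 alternatives. The median log2 difference over members was 0.18 (fat covariate) to 0.31 (without knockout replicate 3), and 0 members were called lower in any. The interquartile range over members was 0.103 to 0.112 under the other scalings, filters and tools, against 0.109 in the reported fit. The matching range over all rows is not given for these alternatives. The number called higher, 9, did not hold. The percentages that follow are the share of all rows called higher in the same fit, against 6.5% in the reported one. The count was 14 with RLE scaling (6.58%), 31 with library size alone (8.49%, the median of all rows moving to 0.041), 5 without a filter (4.28%), 22 at mean log2 CPM 1 or more (8.57%), 55 with DESeq2 (13%) and 14 with near-identical rows summed (6.52%), an alternative chosen after seeing the data. It was 3 with limma-voom (3.21%), a share of members near that of all rows, and 0 with limma on log2(TPM + 1) (2.65%), on log2(TPM + 0.1) (3.69%) and on log2(TPM + 1) without a filter (0.363%), and 0 with the fat covariate (0.54%). With the replicate number as a block 3 of 80 were called, a lower share than the 7.45% of all rows. Whether the numbers pair the libraries was not established. Leaving out 1 library gave 0 to 69. The cause was not tested. At an unadjusted p under 0.05, 40 to 74 of the members were higher over all alternatives, where 12.3% to 22.6% of all rows were.

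The difference in share was 0.440 to 0.615 percentage points when 1 library was left out and 1.38 points of TPM. Signs turned for Rpl27 (-0.020 with the fat covariate) and Rpl39l (-0.96 with the fat covariate, and -0.16 to 1.18 when 1 library was left out), neither of them called. Over 36 named members and 755 values, 589 kept direction and side of the threshold, 98 lost the call, 65 gained it and 3 reversed. The sign of the Rps27l to Rps27 ratio also turned without control replicate 3, to -0.01. Near 0 CPM, as for Rpl39l, counting limits what can be shown.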
